A study of Homo sapiens with 58 samples.

Results

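The mRNAs of the cytosolic ribosomal proteins were followed across a panel of HaCaT cells, an immortalized human keratinocyte line. The genes were chosen by name alone, as every symbol made of RPL or RPS, a number and at most 1 closing letter A, X or L, together with RPLP0, RPLP1, RPLP2 and RPSA. On the arrays 56 genes of this kind had a probe set annotated to them and to no other symbol, 35 of the large and 21 of the small subunit, among 19775 genes in all. A further 25 of the 81 coding genes of these names in the RefSeq annotation of GRCh38.p14 were not analysed here, among them RPLP0, RPSA and RPL10, because the annotation used here gives them no probe set or only probe sets shared with another symbol.

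RNA was hybridized to 58 Affymetrix U133 Plus 2.0 arrays. Of the 5 lines, the first was HaCaT without introduced gene, and the others were the mock-transfected HaCaT-vector, HaCaT-EGFR with forced expression of EGFR, HaCaT-p65 with forced expression of RELA/p65, and HaCaT-HRAS with forced expression of the mutant that the labels spell HRAS-VAL12D. Cells grown in serum gave 5 arrays for HaCaT-EGFR and 3 for every other line. Starved cells, kept without serum, comprised 4 HaCaT-vector, 7 HaCaT-EGFR and 3 HaCaT-p65 arrays. Starved cells given EGF made up 4 HaCaT-vector and 7 HaCaT-EGFR arrays, and starved cells given TNF 3 HaCaT-vector and 5 HaCaT-p65 arrays. HaCaT-EGFR cells received gefitinib, an inhibitor of the EGFR kinase, with EGF on 2 arrays and in serum on 2 arrays. LY294002, an inhibitor of PI3K, and U1026, as the labels spell the MEK inhibitor, were each given with EGF on 1 HaCaT-vector and 1 HaCaT-EGFR array. Cells with a ligand or an inhibitor, and starved cells, were collected at 4 h or 8 h. All such HaCaT-vector arrays and all LY294002 and U1026 arrays were at 4 h. Comparisons of starved or ligand-treated lines, and of these 2 inhibitors, thus set 4 h arrays beside HaCaT-EGFR or HaCaT-p65 groups that pool both times. Of the HaCaT-EGFR serum arrays 1 was at 4 h and 1 at 8 h, and the other serum arrays had no treatment time. The arrays fell on 6 processing dates. On date 3, 2 HaCaT-p65 TNF arrays at 4 h carry the same replicate number, and they were fitted as separate arrays. Date 1 held the serum arrays except 2 of HaCaT-EGFR, and date 6 held all inhibitor arrays, with RNA that the study's sample sheet gives as isolated by Trizol where the others used Qiagen RNeasy. Each forced-expression line was 1 line in the labels, so what distinguishes it from HaCaT-vector cannot be told apart from other differences between derived lines, and nothing in the labels says that replicates were separate cultures, so the p-values measure the spread between these arrays. On every array the mean of 9 keratinocyte markers lay between 10.21 and 11.52, and the means of the fibroblast, melanocyte, leukocyte and endothelial lists lay between 4.04 and 5.50 on the log2 scale. The endothelial gene CDH5 alone reached 8.73, in HaCaT-HRAS.

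Ribosomal proteins assemble with ribosomal RNA into a small subunit, which decodes mRNA, and a large subunit, which joins amino acids. Their mRNAs are among the most abundant of a growing cell and most of them begin with a 5′ terminal oligopyrimidine tract, a run of C and T through which signalling by mTOR, downstream of PI3K, controls their translation. The arrays measure mRNA and not translation. Many genes of ribosome assembly are known transcriptional targets of MYC.

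Most of the start windows found for these genes held a run of C and T at the annotated start. For 48 of the 56 genes the RefSeq promoter table of GRCh38.p14 held a window, 55 windows in all, each taken as 15 bases before the annotated start and 15 from it. A run of at least 8 letters C or T touching the start was found in 35 of these windows, or 63.6%, and in 6.88% of all 35116 windows of the table. The search read the strand with the sequence of the mRNA only, and a match describes letters and not a working site. A run that ended at the base before the annotated start also counted. The 8 windows printed here are those of the genes on which the results turn. RPS21, RPL35 and RPL18 were among the most variable genes of the set, RPL24, RPL38 and RPL41 among those of smallest spread, and RPS27L and RPL10L are paralogues of RPS27 and RPL10. Each is written 5′ to 3′ with the run of C and T in capitals.
RPS21: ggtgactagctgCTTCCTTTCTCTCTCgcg
RPL35: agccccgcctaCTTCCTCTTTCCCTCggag
RPL18: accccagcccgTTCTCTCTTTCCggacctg
RPL24: ttcccatgaTTCTCTCTTTCTTTTCgccat
RPL38: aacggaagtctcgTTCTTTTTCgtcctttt
RPL41: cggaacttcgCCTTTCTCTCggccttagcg
RPS27L: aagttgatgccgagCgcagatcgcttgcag
RPL10L: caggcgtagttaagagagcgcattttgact

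In GRCh38.p14 these windows lie across the annotated starts at chr20:62387088-62387117 on the plus strand for RPS21, chr9:124861943-124861972 on the minus strand for RPL35 and chr19:48619164-48619193 on the minus strand for RPL18. The window of RPL24 is chr3:101686704-101686733 on the minus strand, that of RPL38 chr17:74203663-74203692 on the plus strand and that of RPL41 chr12:56116618-56116647 on the plus strand. The window of RPS27L is chr15:63157463-63157492 and that of RPL10L chr14:46651767-46651796, both on the minus strand. The runs were 15 letters long in RPS21 and RPL35, 12 in RPL18, 16 in RPL24, 9 in RPL38 and 10 in RPL41. RPS27L had a run of 1 and RPL10L none touching its start. Genes with a long tract thus stood at both ends of the range of variation described next.

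Values are the deposited log2 values, from which the authors had already removed the effect of processing date, and a difference of 1 is a doubling. Changes are given with their standard error (SE), and a gene passed when its limma p-value, adjusted by Benjamini-Hochberg over all 19775 genes, was under 0.05. The values of the ribosomal protein mRNAs spread less over the 18 conditions than those of most genes, and most of them lay close to the top of the array's range. The SD of a gene's condition means had a median of 0.102 over the 56 genes and of 0.205 over all genes, and the residual SD between replicate arrays had medians of 0.117 and 0.206. Of the 56 genes 29 had a mean of 13 or more, where the highest mean of any gene was 14.03. These 29 had a median SD of 0.076, and the 18 other genes at that level 0.104. At means of 12 to 13 the medians were 0.124 for 14 members and 0.153 for 118 other genes, and at means of 8 to 12 they were 0.198 for 10 members and 0.201 for 5801 other genes. RPL36A, RPL3L and RPL10L had means under 8 and are in none of these ranges. From a mean of 8 upward the spread thus fell with level in both sets. Loss of differences to saturation near the top was not tested, and it bears on every member at that level.

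The smallest SDs were those of RPL24, RPL41, RPL38, RPL37 and RPS15A, all among the genes of highest level. RPL24, a large-subunit protein at a bridge to the small subunit, had an SD of 0.0315 and lay between 13.93 and 14.13 on all 58 arrays. RPL38 lay between 13.73 and 13.90, and RPL37 between 13.48 and 13.71. The most variable members were RPS21 with an SD of 0.353, RPL36A with 0.290, RPL35 with 0.237, RPS3 with 0.230 and RPL18 with 0.220. RPL36A differed from the other 4 in that its values, 3.45 to 5.17, were low on the array. The means of the marker lists of other cell types lay at a like level, 4.04 to 5.50. The residual SD of RPL36A was 0.254, beside its SD of 0.290 over condition means, and it passed in no comparison. How much of the latter SD is noise at low level was not tested.

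**Figure D1:**
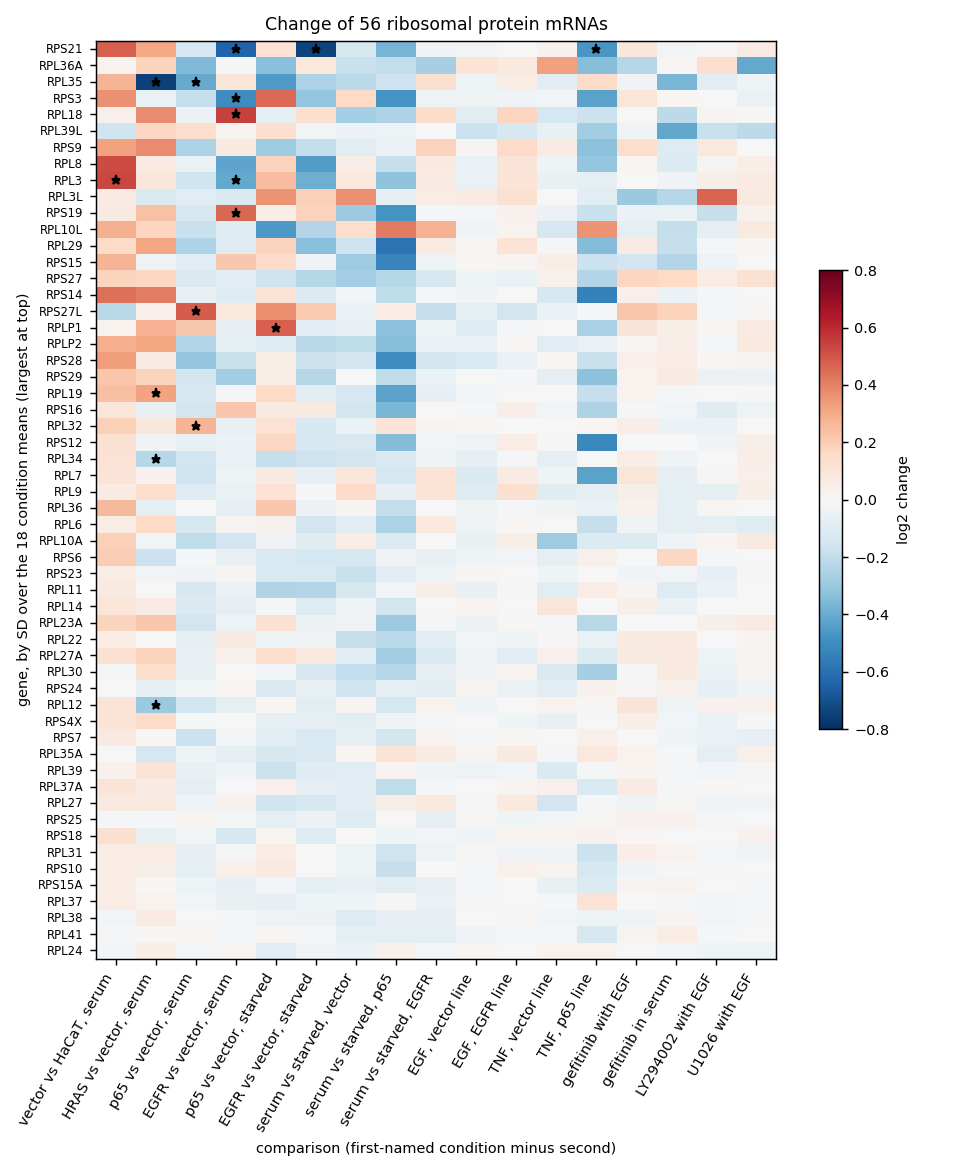
Log2 change of each of the 56 genes (rows, ordered by the SD of their condition means) in 17 comparisons (columns); red is higher and blue lower in the first-named condition, and stars mark adjusted p-values under 0.05. The stars fall in the line comparisons and on RPS21 in HaCaT-p65 with TNF, and none falls in the EGF, serum or inhibitor columns.

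The first question was whether the lines differed in serum. Over the 5 lines, 21 of the 56 genes differed in limma's F test, or 37.5%, where 29.0% of all genes did. They included RPS21, RPL35, RPS3 and RPL18, 4 of the 5 most variable genes named above. That ranking used these same serum groups, so their passing is not a separate result. Both measured stalk genes, RPLP1 and RPLP2, whose proteins recruit elongation factors to the ribosome, also passed. RPS6, the classic substrate of S6 kinase, passed with an adjusted p of 0.0421. Which line differed from which was taken from single comparisons.

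In HaCaT-vector against HaCaT, 1 of 56 genes passed, where 2.87% of all genes did. It was RPL3, which encodes a large-subunit protein close to the peptidyl transferase centre. RPL3 measured 11.02, 10.66 and 10.84 in HaCaT and 11.36, 11.58 and 11.19 in HaCaT-vector. The groups did not overlap, and the log2 change was 0.53 (SE 0.12, adjusted p = 0.00594). The change of 49 of the 56 genes was above 0, with a median of 0.101 against 0.00517 over all genes, and with every array centred on its own median 54 were above 0 with a median of 0.137. The 3 HaCaT arrays were themselves uneven, with a mean deviation over the 56 genes of 0.0317 on replicate 1, -0.218 on replicate 2 and -0.194 on replicate 3. Thus most of the 56 values lay higher in HaCaT-vector although a single gene passed. The call on RPL3 was lost without HaCaT replicate 2 (adjusted p = 0.0663) or HaCaT-vector replicate 2 (0.0981), and 7 genes passed without HaCaT replicate 1.

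**Figure D2:**
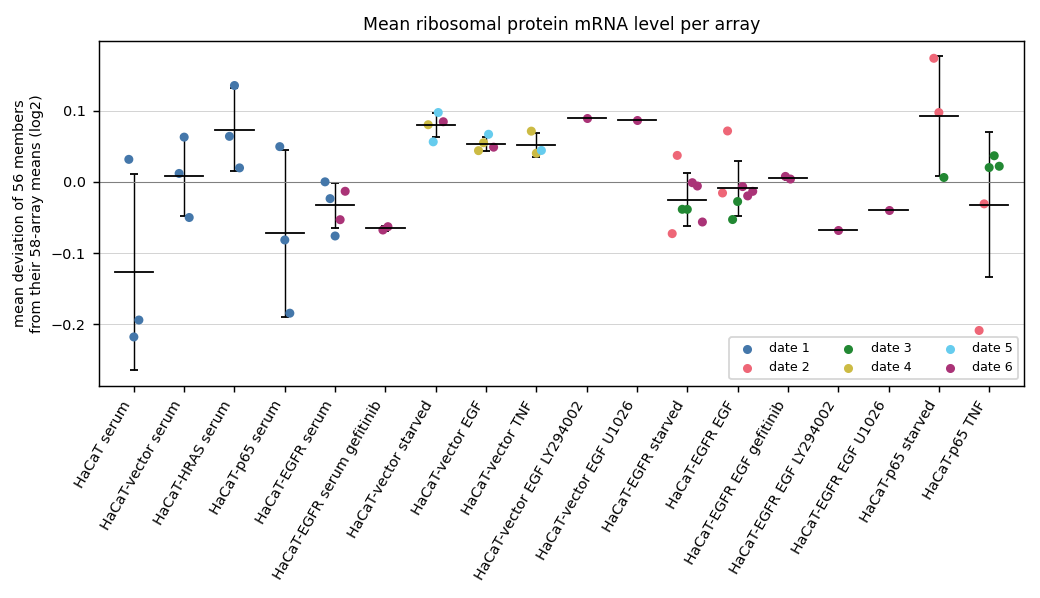
Mean deviation of the 56 genes from their own means over all arrays (log2, vertical axis), for each array by condition; colours give the processing date, bars the group mean and its SD where a group holds over 1 array. Most arrays lie within 0.1 of 0, and the lowest are 2 HaCaT arrays and 1 HaCaT-p65 array in serum and 1 HaCaT-p65 array with TNF.

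In HaCaT-HRAS the gene with the largest difference from HaCaT-vector was RPL35. RPL35, a large-subunit protein at the exit of the nascent peptide, measured 11.00, 11.02 and 10.96 in HaCaT-HRAS and 11.76, 11.78 and 11.69 in HaCaT-vector, both in serum. The groups were far apart in comparison with their spread, and RPL35 fell by 0.75 on the log2 scale (SE 0.13, adjusted p = 1.78e-05). In this comparison 4 of 56 genes passed, 1 higher and 3 lower, or 7.14%, where 18.2% of all genes did. In the same comparison 6 of 9 keratinocyte markers were lower, among them KRT14 by -2.33, KRT16 by -1.26 and DSP by -1.06 on the log2 scale, and the mean of the 9 was 10.21 to 10.41 in HaCaT-HRAS and 11.00 to 11.19 in HaCaT-vector. The endothelial gene CDH5 was higher by 4.29 and the leukocyte gene LYZ by 1.89, each the only gene of its 5-gene list to pass, and no fibroblast or melanocyte marker passed. The part of these differences in the result was not tested. Markers also passed in other lines against HaCaT-vector in serum. They were LAMB3 (1.30) and KRT16 (-1.23) in HaCaT-p65, and KRT14 (-0.72) and the fibroblast gene COL3A1 (2.24) in HaCaT-EGFR. Only 1 single-symbol probe set measured RPL35, and its call held without any single array, with changes from -0.77 to -0.73.

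The other 3 changes were smaller and less firm. RPL19, a large-subunit protein, measured 13.04, 13.25 and 13.09 in HaCaT-HRAS and 12.76, 12.97 and 12.68 in HaCaT-vector. It rose by 0.32 (SE 0.098, adjusted p = 0.0144). RPL12, a protein at the base of the stalk, measured 12.95, 13.13 and 13.07 against 13.33, 13.49 and 13.22, and fell by 0.30 (SE 0.097, adjusted p = 0.0255). RPL34, another large-subunit protein, measured 12.30, 12.21 and 12.14 against 12.49, 12.44 and 12.40, and fell by 0.23 (SE 0.080, adjusted p = 0.0355). None of these 3 groups overlapped. The RPL19 call was lost without HaCaT-HRAS replicate 2 or HaCaT-vector replicate 1 or 3 (adjusted p of 0.0602 to 0.109), and that of RPL12 without HaCaT-HRAS replicate 1 or 3 or HaCaT-vector replicate 1 or 2 (0.0529 to 0.186). The RPL34 call was lost without HaCaT-HRAS replicate 2 or 3 or any single HaCaT-vector replicate (0.0521 to 0.169) or when every probe set was tested (0.0540), and the number of genes called was 1 to 5 as single arrays were left out.

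With HaCaT in place of HaCaT-vector as the control, 17 of the 56 genes passed for HaCaT-HRAS (30.4%, where 17.7% of all genes did), among them RPL35 (-0.48, adjusted p = 0.0054) and RPL19 (0.57, adjusted p = 2.22e-05), while RPL12 and RPL34 did not pass (adjusted p = 0.203 and 0.418). The HaCaT arrays were uneven, as given above, with the 56 genes lower on replicates 2 and 3. RPL19 measured 12.91, 12.44 and 12.33 on HaCaT replicates 1 to 3. The part of this unevenness in the count was not tested. RPS21 had its highest condition mean in HaCaT-HRAS, with arrays at 14.04, 13.98 and 13.86. Against HaCaT-vector the stalk genes RPLP1 and RPLP2 had changes of 0.28 (SE 0.10, adjusted p = 0.0505) and 0.32 (SE 0.12, adjusted p = 0.0683) and did not pass. Replicate numbers of these 2 groups went together across all genes, and with the number as a block both stalk genes passed (adjusted p = 0.0478 and 0.0374), making 6 genes in all. RPL39, RPS27 and the paralogues RPL39L, RPL10L and RPL3L did not pass in any comparison with HaCaT-vector in serum.

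In HaCaT-p65 the gene that differed most from HaCaT-vector in serum was RPS27L. RPS27L encodes a paralogue of RPS27 and is known as a target of p53, whose alleles the study gives as mutant in HaCaT. A part of p53 in the result was not tested. RPS27L measured 10.36, 10.51 and 10.33 in HaCaT-p65 and 9.75, 10.01 and 9.99 in HaCaT-vector. The groups did not overlap, and RPS27L rose by 0.49 (SE 0.098, adjusted p = 0.000594). All 3 of its probe sets rose, by 0.49, 0.42 and 0.44, and each passed when every probe set was tested, whereas RPL35 (adjusted p = 0.0637) did not pass in that fit. RPS27 itself had a change of -0.12 (95% interval -0.41 to 0.17) and did not pass.

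In this comparison 3 of 56 genes passed, or 5.36%, where 7.18% of all genes did. RPL32, a large-subunit protein, measured 13.88, 13.81 and 13.80 in HaCaT-p65 and 13.52, 13.64 and 13.51 in HaCaT-vector, and rose by 0.27 (SE 0.073, adjusted p = 0.0129). RPL35 measured 11.42, 11.41 and 11.19 against 11.76, 11.78 and 11.69, and fell by 0.40 (SE 0.13, adjusted p = 0.0445). Both pairs of groups were separate. The call on RPS27L held without any single array but not against HaCaT (0.27, adjusted p = 0.112), where RPL32 was the 1 gene of 56 to pass (0.46, adjusted p = 2.59e-05), beside 5.94% of all genes, and RPL35 did not (-0.13, adjusted p = 0.726). That on RPL32 was lost without HaCaT-p65 replicate 1 or HaCaT-vector replicate 1 or 3 (adjusted p of 0.0631 to 0.0726), and that on RPL35 whichever of the 6 arrays was left out (0.0528 to 0.265), so 1 or 2 genes passed as single arrays were left out. Of the 56 changes 7 were above 0 and the median was -0.0754, with 20 above 0 and a median of -0.0216 after centring of the arrays.

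In HaCaT-EGFR the gene with the largest difference was RPS21, a small-subunit protein. In serum RPS21 measured 13.10, 12.94, 13.00, 13.02 and 13.00 in HaCaT-EGFR and 13.76, 13.69 and 13.51 in HaCaT-vector. It fell by 0.64 (SE 0.14, adjusted p = 0.00172), and its second probe set fell by 0.88 (SE 0.14, adjusted p = 2.45e-05). In starved cells RPS21 ranged from 12.73 to 13.15 with a median of 13.11 over the 7 HaCaT-EGFR arrays and measured 13.80, 13.76, 13.79 and 13.77 in HaCaT-vector. It fell by 0.74 there (SE 0.16, adjusted p = 0.00175), and the second probe set fell by 1.11 (SE 0.16, adjusted p = 6.54e-06). The difference thus had the same sign in both media, whose changes were not tested against each other.

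Taken over every condition, the 25 HaCaT-EGFR arrays ranged from 12.73 to 13.21 for RPS21 and the 16 HaCaT-vector arrays from 13.51 to 13.83, with no overlap. RPS3, a small-subunit protein at the mRNA entry site that also takes part in DNA repair, was the other gene whose arrays did not overlap between these lines, with 11.85 to 12.39 in HaCaT-EGFR and 12.41 to 12.78 in HaCaT-vector. These were 2 of 56 genes, beside 3.06% of all genes. HaCaT-p65 and HaCaT-vector likewise did not overlap for 2 of 56 genes, RPS27L (10.22 to 10.52 on 11 arrays and 9.75 to 10.06 on 16) and RPL32 (13.65 to 13.88 and 13.51 to 13.65 as rounded), beside 3.09% of all genes. Neither count stood clear of its background.

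Against HaCaT the difference in RPS21 was not seen. The 3 HaCaT arrays measured 13.59, 12.94 and 12.99, of which the last 2 lay in the HaCaT-EGFR range, and with HaCaT as control the change in serum was -0.16 (adjusted p = 0.763). The call against HaCaT-vector in serum held without any single array, with changes from -0.71 to -0.59. In starved cells only 1 date held both lines, with a change of -0.70 on 4 arrays, and the call was lost without the HaCaT-vector array of that date (-0.75, adjusted p = 0.136).

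**Figure D3:**
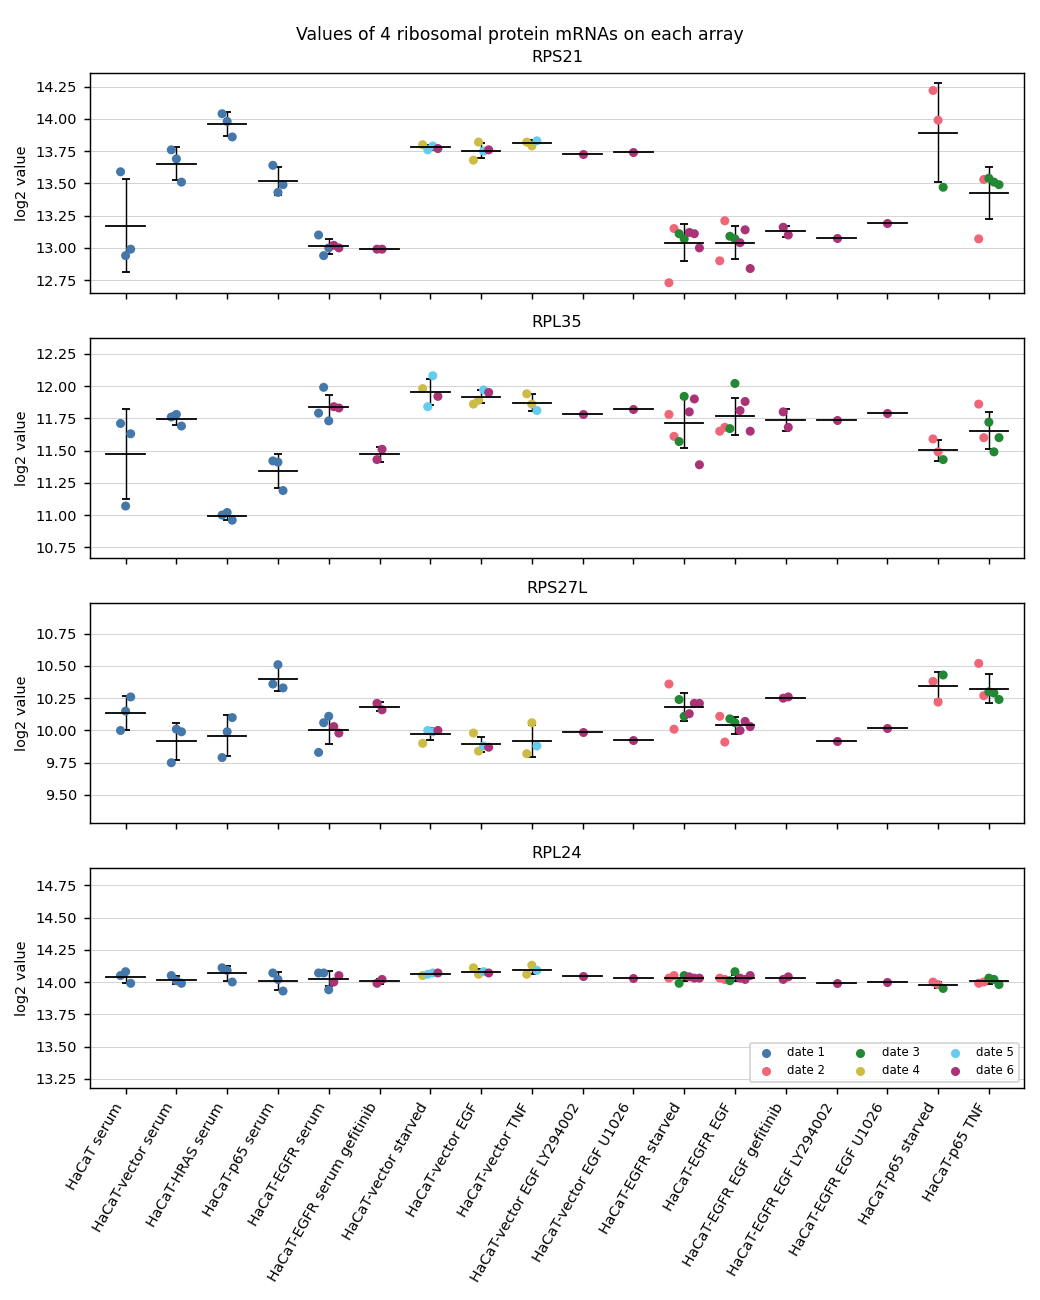
Log2 value (vertical axes, all spanning the same range) of RPS21, RPL35, RPS27L and RPL24 on each array by condition; colours give the processing date, bars the group mean and SD. RPS21 lies at 13.21 or below on every HaCaT-EGFR array, RPL35 is lowest in HaCaT-HRAS, RPS27L is higher in HaCaT-p65 than in HaCaT-vector, and RPL24 stays between 13.93 and 14.13.

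Altogether 5 of 56 genes passed for HaCaT-EGFR against HaCaT-vector in serum, or 8.93%, where 7.87% of all genes did, and 1 passed in starved cells, where 7.89% did. RPL18, a large-subunit protein, ranged from 11.59 to 11.82 on the 5 HaCaT-EGFR arrays and measured 11.16, 11.13 and 11.10 in HaCaT-vector. It rose by 0.55 (SE 0.15, adjusted p = 0.0165), but its other 2 probe sets changed by -0.14 and 0.076. RPS19, a small-subunit protein whose gene is mutated in Diamond-Blackfan anaemia, ranged from 12.99 to 13.09 against 12.41, 12.92 and 12.36. It rose by 0.46 (SE 0.14, adjusted p = 0.0254), with 0.46 and 0.38 on its other probe sets. RPS3 ranged from 12.02 to 12.26 against 12.69, 12.78 and 12.47, and fell by 0.50 (SE 0.15, adjusted p = 0.0271). RPL3 ranged from 10.88 to 11.11 against 11.36, 11.58 and 11.19, and fell by 0.41 (SE 0.12, adjusted p = 0.0282). Against HaCaT, the sign of the RPL3 difference turned, to 0.13 (adjusted p = 0.792), RPS3 did not pass (-0.14, adjusted p = 0.843), and RPL18 and RPS19 were the 2 genes to pass (0.59 and 0.53), beside 3.88% of all genes.

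These 4 calls depended on single arrays of processing date 1. That on RPL18 was lost without HaCaT-vector replicate 2 or 3 or HaCaT-EGFR replicate 2 (adjusted p of 0.0512 to 0.110), and that on RPS19 without HaCaT-vector replicate 1 or 3 or any single HaCaT-EGFR replicate of that date (0.0549 to 0.196). That on RPS3 was lost without replicate 1 or 2 of HaCaT-vector or replicate 2 or 3 of HaCaT-EGFR (0.0774 to 0.147), and that on RPL3 without replicate 1 or 2 of HaCaT-vector or replicate 1 or 3 of HaCaT-EGFR (0.0730 to 0.250). Between 2 and 5 genes passed as single arrays were left out. The replicate numbers of the date 1 arrays went together for these 2 lines as well, and with the number as a block the same 5 genes passed.

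In starved HaCaT-p65 against starved HaCaT-vector, 1 of 56 genes passed, where 5.30% of all genes did. It was the stalk gene RPLP1, which measured 13.23, 13.23 and 12.96 in HaCaT-p65 and 12.70, 12.61, 12.68 and 12.65 in HaCaT-vector. The groups did not overlap and RPLP1 rose by 0.48 (SE 0.14, adjusted p = 0.0339), while its other probe set changed by -0.58 and the chosen one did not pass when every probe set was tested (adjusted p = 0.0528). No date held both groups, and the call was lost without either date 2 array of starved HaCaT-p65 (adjusted p = 0.0930 and 0.0989) or the date 6 array of starved HaCaT-vector (0.373).

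The second question was whether serum changed these mRNAs. It changed none of the 56 detectably. In HaCaT-EGFR 0 passed in limma and 0 had an unadjusted p under 0.05, where 3.25% of all genes passed and 16.6% had such a p. The changes ran from -0.26 to 0.28, and 53 of 56 intervals (95%) lay within 0.5 of 0 on the log2 scale. On the single date that held both media, the median change was -0.0200 over 5 arrays. Over all dates it was -0.0185 with 21 of 56 above 0, and with centred arrays 0.0727 with 51 above 0, so that the sign of the median turned. In HaCaT-vector 0 passed and 0 had an unadjusted p under 0.05, where the shares over all genes were 0.976% and 11.3%. In HaCaT-p65 0 passed and 6 had an unadjusted p under 0.05, where the shares were 0.703% and 10.5%. The lowest was RPL29, a large-subunit protein, with -0.59 (SE 0.22, adjusted p = 0.251). In these 2 lines serum and starved arrays came from different dates and are linked only through HaCaT-EGFR, and 35 and 27 of 56 intervals lay within 0.5 of 0.

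The third question was the response to the ligands. EGF changed none of the ribosomal protein mRNAs detectably, and within narrow limits. In HaCaT-EGFR 0 of 56 genes passed and 1 had an unadjusted p under 0.05, where 8.80% of all genes passed and 20.6% had such a p. The changes ran from -0.14 for RPS27L to 0.17 for RPL18, with a median of 0.00540 (0.0547 with centred arrays, where 50 rather than 33 were above 0), and all 56 intervals lay within 0.5 of 0. RPS21 ranged from 12.84 to 13.21 with EGF (median 13.07) and from 12.73 to 13.15 without (median 13.11), so its groups overlapped. In HaCaT-vector 0 passed and 0 had an unadjusted p under 0.05, where the shares were 1.01% and 9.31%, and the changes ran from -0.17 to 0.11, with 16 above 0, or 45 with centred arrays. The response did not detectably differ between the lines, as 0 genes passed the interaction and 0 had an unadjusted p under 0.05, where the shares over all genes were 0% and 1.73%.

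Genes that build ribosomes were set beside them. Of 39 measured genes of ribosome assembly and RNA polymerase I, 12 passed with EGF in HaCaT-EGFR, 11 higher and 1 lower, with a median change of 0.206 and 36 above 0. Of all genes 8.80% passed there. BYSL, which acts in assembly of the small subunit, rose by 0.49 (SE 0.14, adjusted p = 0.0208). DDX21, a nucleolar helicase, rose by 0.43 (SE 0.070, adjusted p = 6.49e-05), and LYAR, a nucleolar protein, by 0.43 (SE 0.11, adjusted p = 0.0138). In HaCaT-vector 2 passed, where 1.01% of all genes did. NOP2, an rRNA methyltransferase, rose by 0.45 (SE 0.11, adjusted p = 0.0338) and POLR1B, a subunit of RNA polymerase I, by 0.42 (SE 0.11, adjusted p = 0.0446). MYC, the transcription factor, rose by 0.81 (SE 0.14, adjusted p = 0.000227) in HaCaT-EGFR and by 0.87 (SE 0.20, adjusted p = 0.0185) in HaCaT-vector. Among 18 translation factors and other mRNAs with such tracts 1 passed in HaCaT-EGFR, EIF3G with 0.26 (SE 0.082, adjusted p = 0.0395), and among 75 mitochondrial ribosomal proteins 4 passed, 2 in each direction. Both shares lay below the 8.80% of all genes. The difference between the lists was not tested, and the lists were drawn up with earlier results of these data known. As single arrays were left out, 6 to 18 assembly genes passed in HaCaT-EGFR and 0 or 1 in HaCaT-vector.

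**Figure D4:**
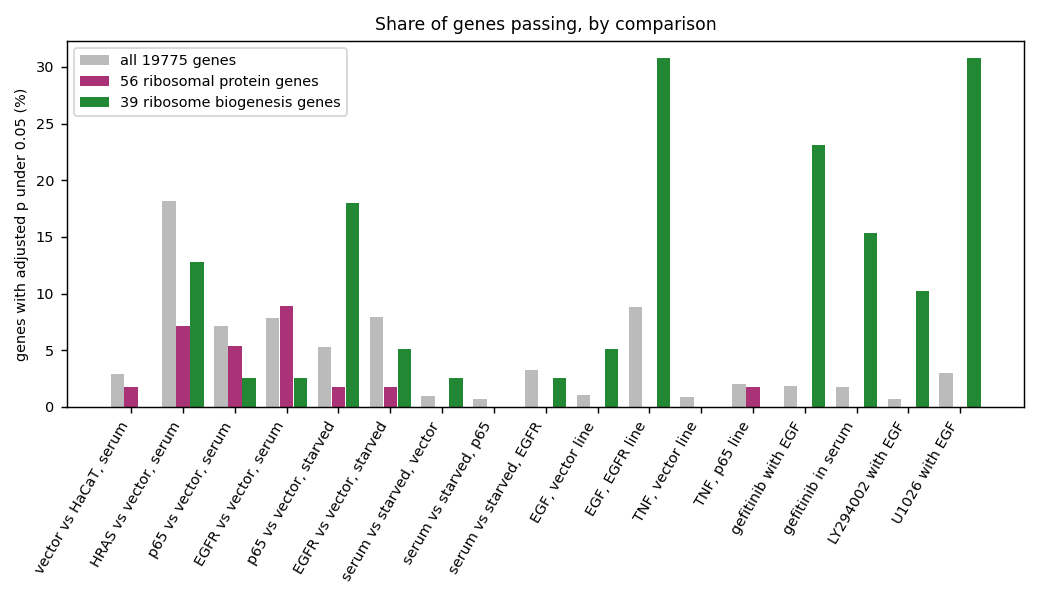
Share of genes with an adjusted p under 0.05 (vertical axis, percent, from 0) in 17 comparisons, for all genes, the 56 ribosomal protein genes and 39 ribosome assembly genes. No ribosomal protein gene passed in the serum, EGF or inhibitor comparisons, where 12 assembly genes passed with EGF in HaCaT-EGFR and 12 with U1026.

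TNF had no clear effect. In HaCaT-vector 0 of 56 genes passed and 1, RPL10A (-0.29, SE 0.12, adjusted p = 0.525), had an unadjusted p under 0.05, where 0.905% of all genes passed and 6.33% had such a p. In HaCaT-p65 1 passed, where 2.03% of all genes did. It was RPS21, which measured 13.07, 13.53, 13.54, 13.51 and 13.49 with TNF and 14.22, 13.99 and 13.47 without. The groups overlapped, and RPS21 fell by 0.47 (SE 0.13, adjusted p = 0.0483), by 0.35 without a call after centring of the arrays, which moved the median of all genes by 0.116. Its second probe set changed by 0.15, and RPS21 did not pass when every probe set was tested (adjusted p = 0.0646). The change was -0.81 on date 2 and 0.05 on date 3. The lowest change of the 56 in HaCaT-p65 was that of RPS14, -0.54, which did not pass. Of the 56 changes 44 were below 0 on date 2 (median -0.196) and 22 on date 3 (median 0.0386).

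The call on RPS21 depended on the arrays of date 2. It was lost without HaCaT-p65 TNF replicate 1 at 4 h (-0.34, adjusted p = 0.265) or at 8 h (-0.50, 0.0865), or without the starved replicate 1 at 4 h (-0.31, 0.431) or at 8 h (-0.42, 0.130). On the 4 h TNF array of date 2 the 56 genes lay lower, with a mean deviation of -0.209, where the other 4 TNF arrays had -0.0308 to 0.0368. The same array had the largest difference between the 3′ and 5′ control probe sets of GAPDH. It was 1.69, where the 57 others had at most 1.19. For ACTB the largest difference, 5.86, was on an array of date 6, and date 2 reached at most 5.70. Both are from date-subtracted values, and the part of the 4 h TNF array in the result was not tested beyond the fit without it. Leaving out single arrays gave 0 to 4 genes, 4 of them without TNF replicate 3, which the study's sample sheet describes as a control. The interaction of TNF and line passed for 0 of 56 genes, with 4 at an unadjusted p under 0.05, where 0.0101% of all genes passed and 7.67% had such a p.

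The last question was whether the inhibitors changed these mRNAs. None did so detectably, by comparison with the same EGF or serum arrays used before. With gefitinib and EGF in HaCaT-EGFR 0 of 56 genes passed and 1 had an unadjusted p under 0.05, RPS27L (0.22, SE 0.10, adjusted p = 0.370), where 1.81% of all genes passed and 12.2% had such a p. RPS27L measured 10.25 and 10.26 with gefitinib and 9.91 to 10.11 with EGF alone. With gefitinib in serum 0 passed and 1 had an unadjusted p under 0.05, RPL35 (-0.37, SE 0.16, adjusted p = 0.283), where the shares were 1.79% and 12.6%. RPL35 measured 11.43 and 11.51 with gefitinib and 11.73 to 11.99 on the 5 serum arrays. Each change given for LY294002 or U1026, here and below, is a mean over HaCaT-EGFR and HaCaT-vector, with 1 inhibitor array per line. With LY294002 0 passed and 1 had an unadjusted p under 0.05, RPL3L (0.47, SE 0.21, adjusted p = 0.433), where the shares were 0.693% and 10.0%. With U1026 0 passed and 0 had an unadjusted p under 0.05, where the shares were 3.02% and 14.4%. Of the 56 intervals, 52 lay within 0.5 of 0 for gefitinib with EGF, 45 for gefitinib in serum and 53 for each of LY294002 and U1026.

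A minority of the assembly genes passed under each inhibitor, to be read beside the shares of all genes given in the paragraph above. Of 39, 9 passed with gefitinib and EGF, 6 with gefitinib in serum, 4 with LY294002 and 12 with U1026, all lower. The median changes were -0.355, -0.409, -0.267 and -0.327, beside medians of 0.0200, -0.0188, -0.0152 and 0.00576 for the 56 ribosomal protein genes, which became 0.0227, -0.0745, -0.0158 and -0.0362 with centred arrays. The assembly gene NOP16 lay above 0 under each inhibitor, without passing (0.15 to 0.27). With gefitinib and EGF, BYSL fell by 0.84 (SE 0.22), LYAR by 0.67 (SE 0.18) and RRP12, a factor in processing of ribosomal precursors, by 0.64 (SE 0.12). In serum LYAR fell by 0.86 (SE 0.21), RRP12 by 0.65 (SE 0.14) and WDR3, a small-subunit assembly factor, by 0.65 (SE 0.16). With LY294002, POLR1B fell by 0.63 (SE 0.13), WDR3 by 0.61 (SE 0.13) and BRIX1, a large-subunit assembly factor, by 0.56 (SE 0.12). With U1026, RRS1, another large-subunit assembly factor, fell by 0.87 (SE 0.13), POLR1B by 0.81 (SE 0.13) and NOP2 by 0.68 (SE 0.13). MYC fell by 1.23 (SE 0.23, adjusted p = 0.00224) with gefitinib and EGF. It did not pass with gefitinib in serum (-0.97, SE 0.27, adjusted p = 0.0511), LY294002 (0.21, SE 0.23, adjusted p = 0.882) or U1026 (-0.060, SE 0.23, adjusted p = 0.960).

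These inhibitor groups held 1 or 2 arrays each, the lone LY294002 and U1026 arrays being assumed to vary like the other groups. As single arrays were left out, 0 to 9 assembly genes passed with gefitinib and EGF, 0 to 6 with gefitinib in serum, 0 to 4 with LY294002 and 3 to 12 with U1026, and when only the arrays compared were fitted 1, 0, 0 and 2 passed.

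**Figure D5:**
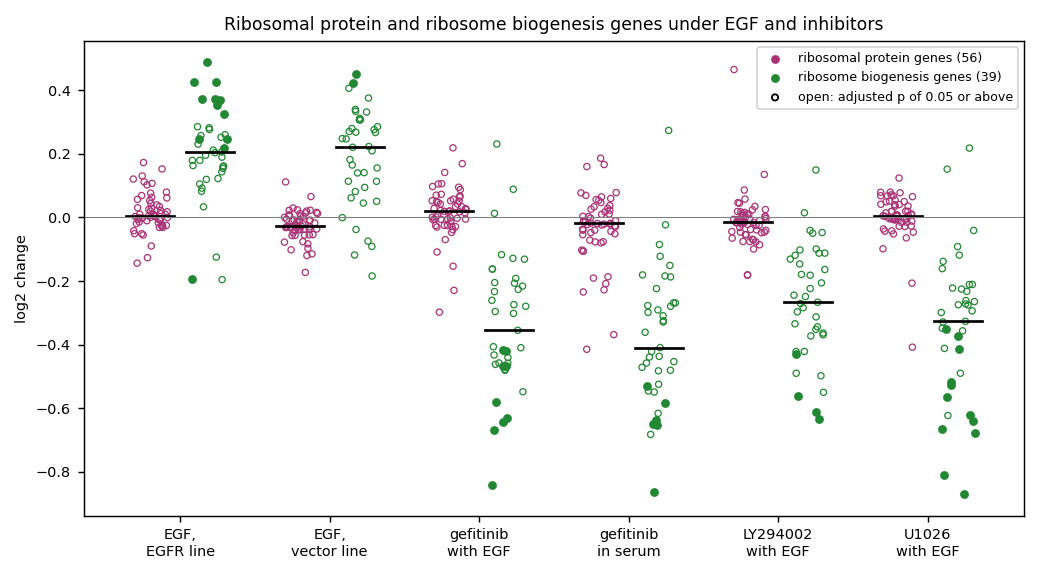
Log2 change (vertical axis) of the 56 ribosomal protein genes and 39 ribosome assembly genes under EGF and 4 inhibitor treatments; filled points have an adjusted p under 0.05 and bars are medians. The assembly genes have medians of 0.206 and 0.221 with EGF and of -0.409 to -0.267 with inhibitors, and the ribosomal protein genes have medians between -0.0278 and 0.0200.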

How the data were processed

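Per the study's methods, the authors normalized the Affymetrix arrays with fRMA, took from them the effect of each processing date as estimated by limma beside condition, and deposited the resulting log2 values. These log2 values were used unchanged, and no depth or counts exist for arrays, whose number limits the precision. Of 54675 probe sets, 41097 were annotated to a single symbol, 1801 to more than 1, and 11777 to none. Each of 19775 genes was represented by its single-symbol probe set with the highest mean over the 58 arrays, which for 43 of the 56 genes was of the _x_at or _s_at type that can match related sequences, and 34 of the 56 had over 1 probe set.

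The model had 18 conditions and 6 dates, leaving 35 residual degrees of freedom, and was fitted by limma 3.58.1 with eBayes (R 4.3.3). Dates stayed in it so that the degrees of freedom they took were counted. Members, gene lists and tests were chosen with earlier results of these data known. Named are the genes that passed, the 5 most and 5 least variable, the paralogues RPL3L, RPL10L, RPL39L and RPS27L with their partners, the stalk proteins, and up to 3 genes of another list per comparison; RPS6, RPL10A, RPL29 and MYC were chosen after their values were seen. Further lists covered 9 MYC network, 14 mTOR and translation control and 6 ribosomal genes outside the naming rule. The fit was tested on simulated data. Alternatives were other probe set choices, centring, no date term, fewer arrays, a filter on low values, trend and robust eBayes, the replicate number as a block, another control line and leaving out arrays. Deviations of serum arrays with the same replicate number correlated on average at 0.262 and those with other numbers at -0.130. As deviations sum to 0 within each group of 3 arrays, the second value follows largely from the first. All 3 correlations were over 0.1 between HaCaT-vector and HaCaT-HRAS (0.191 to 0.527) and between HaCaT-vector and HaCaT-EGFR (0.216 to 0.529), which were taken as paired, and not between HaCaT-vector and HaCaT or HaCaT-p65. Comparisons of EGF, inhibitors and lines share arrays.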

Additional observations from a re-analysis of the deposited data

Results flagged for a closer look

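No response to EGF or TNF passed a test of difference between lines for any of the 56 genes. In 78 tests of a single array against the rest of its condition (13 measures, groups of 4 to 7 arrays), 12 gave an array far from the others by Dixon's criterion, which chance gives in about 1 of 20 groups. Of these, 6 came from 1 array, HaCaT-p65 with TNF, replicate 1 of date 2 at 4 h. This array also had the widest gap between 3′ and 5′ GAPDH probe sets, but not between those of ACTB. Its mean deviation over the 56 genes was -0.21, where the other 4 had -0.03 to 0.04. RPS3 was 11.92 on it (others 12.57 to 12.74), RPS21 13.07 (13.49 to 13.54), RPLP1 12.59 (12.93 to 12.97) and RPS19 12.52 (12.74 to 12.81), all lower. RPS27L was higher on it, at 10.52 against 10.24 to 10.30.

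The others were scattered. In HaCaT-EGFR with EGF, the array of date 2 at 8 h had a mean deviation of 0.07 (others -0.05 to -0.01), and RPL12 was 13.05 on replicate 3 of date 3 (13.22 to 13.30). In starved HaCaT-EGFR, RPL12 was 12.95 on the date 6 array at 8 h (13.25 to 13.32), and RPS21 was 12.73 on the date 2 array at 4 h (13.00 to 13.15). In HaCaT-vector, RPL18 was 11.18 on replicate 2 of date 4 with EGF (11.36 to 11.37), and RPS27L was 9.90 on replicate 3 of date 4 in starved cells (9.99 to 10.00).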

How the results depend on the processing

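Counts are of the 56 genes past the threshold unless said otherwise, and no cause of a shift was tested. Except against HaCaT, where it stands above, the share of all genes that passed under each refit is not given. The counts therefore do not tell a shift of these genes from a shift of all genes. With the mean of all probe sets, 3 passed for HaCaT-vector against HaCaT, 5 for HaCaT-p65 in serum, 2 for starved HaCaT-EGFR and 0 for TNF in HaCaT-p65. With probe sets free of an x or s suffix (34 of the genes), 7 passed for HaCaT-HRAS, 5 for starved HaCaT-EGFR, 2 for starved HaCaT-p65 and 0 for TNF in HaCaT-p65. With centred arrays 3 passed for HaCaT-vector and 0 for TNF in HaCaT-p65. Without the date term, which overstates the degrees of freedom of date-subtracted values, 3 passed for HaCaT-vector, 7 for HaCaT-HRAS, 11 for starved HaCaT-EGFR, 8 for starved HaCaT-p65, 4 for TNF in HaCaT-p65, and 1, 3 and 15 for serum in HaCaT-EGFR, HaCaT-vector and HaCaT-p65. With only the groups compared, 11 passed over the 5 lines, 0 for HaCaT-vector, 2 for HaCaT-HRAS, 0 for HaCaT-p65 in serum, 0 for starved HaCaT-EGFR, 9 for starved HaCaT-p65, 6 and 2 for serum in HaCaT-vector and HaCaT-p65, and 0 for TNF in HaCaT-p65. Among the brighter genes (53 of the 56), 4 passed for HaCaT-vector, 9 for HaCaT-HRAS, 2 for starved HaCaT-EGFR and 4 for TNF in HaCaT-p65. With trend and robust eBayes 3 passed for HaCaT-vector. Without 8 h arrays 3 passed for HaCaT-EGFR in serum, 0 for starved HaCaT-p65 and 0 for TNF in HaCaT-p65. Against HaCaT 17, 1 and 2 passed for HaCaT-HRAS, HaCaT-p65 and HaCaT-EGFR in serum, and without HaCaT-p65 TNF replicate 3, 4 passed for TNF in HaCaT-p65.

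Leaving out single arrays gave 11 to 21 genes over the 5 lines (11 without HaCaT-HRAS replicate 2), 0 to 7 for HaCaT-vector against HaCaT, 1 to 5 for HaCaT-HRAS, 1 to 2 for HaCaT-p65 and 2 to 5 for HaCaT-EGFR in serum, 0 to 1 for each of starved HaCaT-EGFR and HaCaT-p65, 0 to 4 for TNF in HaCaT-p65, 0 to 1 for gefitinib in serum and 0 elsewhere. Beside the stalk genes in HaCaT-HRAS, the replicate block changed 1 call, RPS21 in HaCaT-vector against HaCaT (0.48, adjusted p = 0.0564, and 0.0499 with the block), where 2 genes then passed and the numbers did not meet the rule for pairs.

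The sign turned for RPLP1 in starved HaCaT-p65 (-0.051 with the mean of probe sets, -0.58 on its other probe set), for RPS21 with TNF in HaCaT-p65 (0.15 on its second probe set), for RPL18 in HaCaT-EGFR (-0.14 on another probe set) and for RPL3 in HaCaT-EGFR against HaCaT (0.13). Leave-one-out aside, 145 recomputed counts stayed within 1.5 times and 39 did not. These numbers do not separate comparisons with 0 genes in the main fit from those with calls, so they do not measure how stable the calls were.

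The assembly gene counts, recomputed by choices added after seeing the data, moved for EGF in HaCaT-vector (1 to 5), gefitinib with EGF (1 to 16), gefitinib in serum (0 to 19), LY294002 (0 to 8) and, with only the groups compared, EGF in HaCaT-EGFR (4) and U1026 (2). Single probe sets and the fit of all probe sets were also added after seeing the data.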
